A study of Arabidopsis thaliana with 4 samples.

Results

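Cytochrome P450 (CYP) genes, UDP-dependent glycosyltransferase (UGT) genes and family 1 beta-glucosidase (BGLU) genes were followed across 4 array profiles of Arabidopsis thaliana seedlings, 1 each from wild type, gl1, ttg1 and gl3egl3. The members are the genes whose symbol is CYP or UGT followed by number, letter and number, or BGLU followed by a number, together with PYK10, wherever a probe set names that gene alone. The anthocyanin and flavonol genes UGT75C1, UGT79B1, UGT78D1, UGT78D2 and UGT78D3 were left out. This gave 87 genes with 1 probe set each, of 13513 probe sets that name 1 gene and 22746 in all. They comprise 22 CYP genes, of which 18 belong to the CYP71B subfamily, 44 UGT genes and 21 BGLU genes including PYK10. In the reference annotation 321 genes have a symbol of this form, so most are not analysed here.

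The 3 mutants lack trichomes, the hairs of the leaf surface, and the design text sets each against wild type to find transcripts enriched in trichomes. The products of the mutated genes, the MYB factor GL1, the WD40 protein TTG1 and the paired bHLH factors GL3 and EGL3, form a complex that starts trichome fate. Growth was at 22 °C under days of 16 h light and 8 h dark. Plants were 20 days old by the labels of ttg1, gl3egl3 and wild type, with no age given for gl1, and the labels state that green tissue alone was taken for wild type, gl1 and ttg1, but not for gl3egl3. A Landsberg erecta (L.er) wild type is named as the reference of ttg1 and gl3egl3, while the labels of wild type and gl1 name no accession, and none gives an allele. The design text writes the double mutant as gl3egl1, and the sample title was followed here. RCA, the Rubisco activase gene and the one named green tissue marker of 9, was at 12.19 to 12.30 (log2) in all 4 arrays. Of 10 root genes, 3 are named, and they were uneven. EXPA7, a root hair gene, was at 3.26 to 3.39. EXPA18 ran from 5.34 in wild type to 3.89 in gl3egl3, and PYK10 was at 10.91 to 11.34. Of the trichome genes, 3 of 8 are named, and TRY, a repressor of trichome fate, was at 5.44 in wild type and at 4.84, 5.56 and 8.24 in gl1, ttg1 and gl3egl3, while SIM and GIS stayed within 2-fold. Values of the mutated genes were not analysed here, so the genotype labels were not checked against them.

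Plant P450s are membrane-bound monooxygenases that hydroxylate, oxidise or rearrange small molecules. UGTs attach a sugar, usually glucose, to hormones, phenolics and foreign compounds, which commonly makes them inactive and ready for storage in the vacuole. Beta-glucosidases remove such sugars, and in Arabidopsis they release hormones, monolignols and defence compounds. The families therefore work in sequence on many of the same pathways, among them glucosinolates, abscisic acid and lignin precursors.

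Values below are log2 probe set values after quantile normalization of the 4 arrays, and a difference of 1 is 2-fold. Each genotype has 1 deposited column, called an array here although the labels do not say whether the wild-type column is a mean of several, so no single mutant's distance from wild type can be set against replicates or given a p-value, and all 3 comparisons share the same wild-type array. Bulk tissue does not tell fewer expressing cells from less RNA per cell. A probe set passed the level filter where its highest array reached 6.26, the median of all values, which 41 of the 87 genes did (9 CYP, 23 UGT and 9 BGLU genes). Of the 41, 34 were above that level in all 4 arrays, and 3 passed through a single array (CYP71B24, UGT71B6 and UGT72B3). The level of a probe set also depends on its probes, so no order of abundance among the genes is read.

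The families as a whole lay close to wild type. In gl1, ttg1 and gl3egl3 the median difference of the 87 genes was 0.03, -0.03 and 0.06, against 0.00, 0.01 and -0.02 over all 22746 probe sets. The distance between the highest and lowest array was under 2-fold in 69 of 87 genes (79.3%), against 81.7% of all probe sets. The 16 genes that were at least 2-fold from wild type in some mutant were 9 of 44 UGT, 5 of 21 BGLU and 2 of 22 CYP genes. Of these 16, 11 passed the level filter. The share of all probe sets 2-fold from wild type in some mutant is not given here, so the 16 are not read as many or few. By family, the median differences in the same order were -0.07, -0.12 and -0.07 for UGT genes, 0.11, 0.01 and 0.17 for BGLU genes, and -0.02, 0.03 and 0.23 for CYP genes, with genes on both sides of wild type in each.

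**Figure D1:**
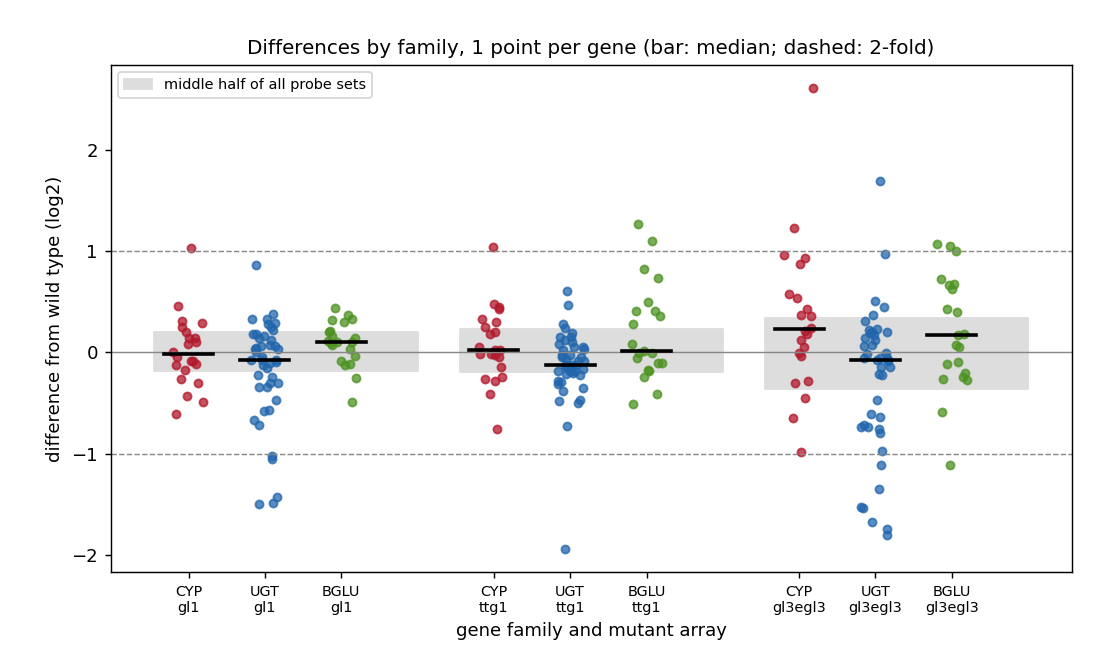
Difference from wild type (log2, vertical axis) for each gene by family and mutant array; black bars are medians, the grey band is the interquartile range of all probe sets, and dashed lines mark 2-fold. Points below the lower dashed line are UGT genes except for 1 BGLU gene (BGLU42) in gl3egl3.

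Counts past 2-fold differed by mutant. In gl1, 5 of 87 genes were lower and 1 higher, where 1.13% and 0.651% of all probe sets were. In ttg1, 1 was lower and 3 higher, against 2.4% and 1.29%. In gl3egl3, 8 were lower and 6 higher, against 5.9% and 6.31%. Among genes that passed the filter the counts were 5 and 1 in gl1 (background 1.9% and 0.968%), 1 and 2 in ttg1 (3.78% and 1.79%), and 7 and 3 in gl3egl3 (7.37% and 6.63%). All 5 genes lower in gl1 and 7 of the 8 lower in gl3egl3 are UGT genes, and no CYP gene was 2-fold lower in any mutant.

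**Figure D2:**
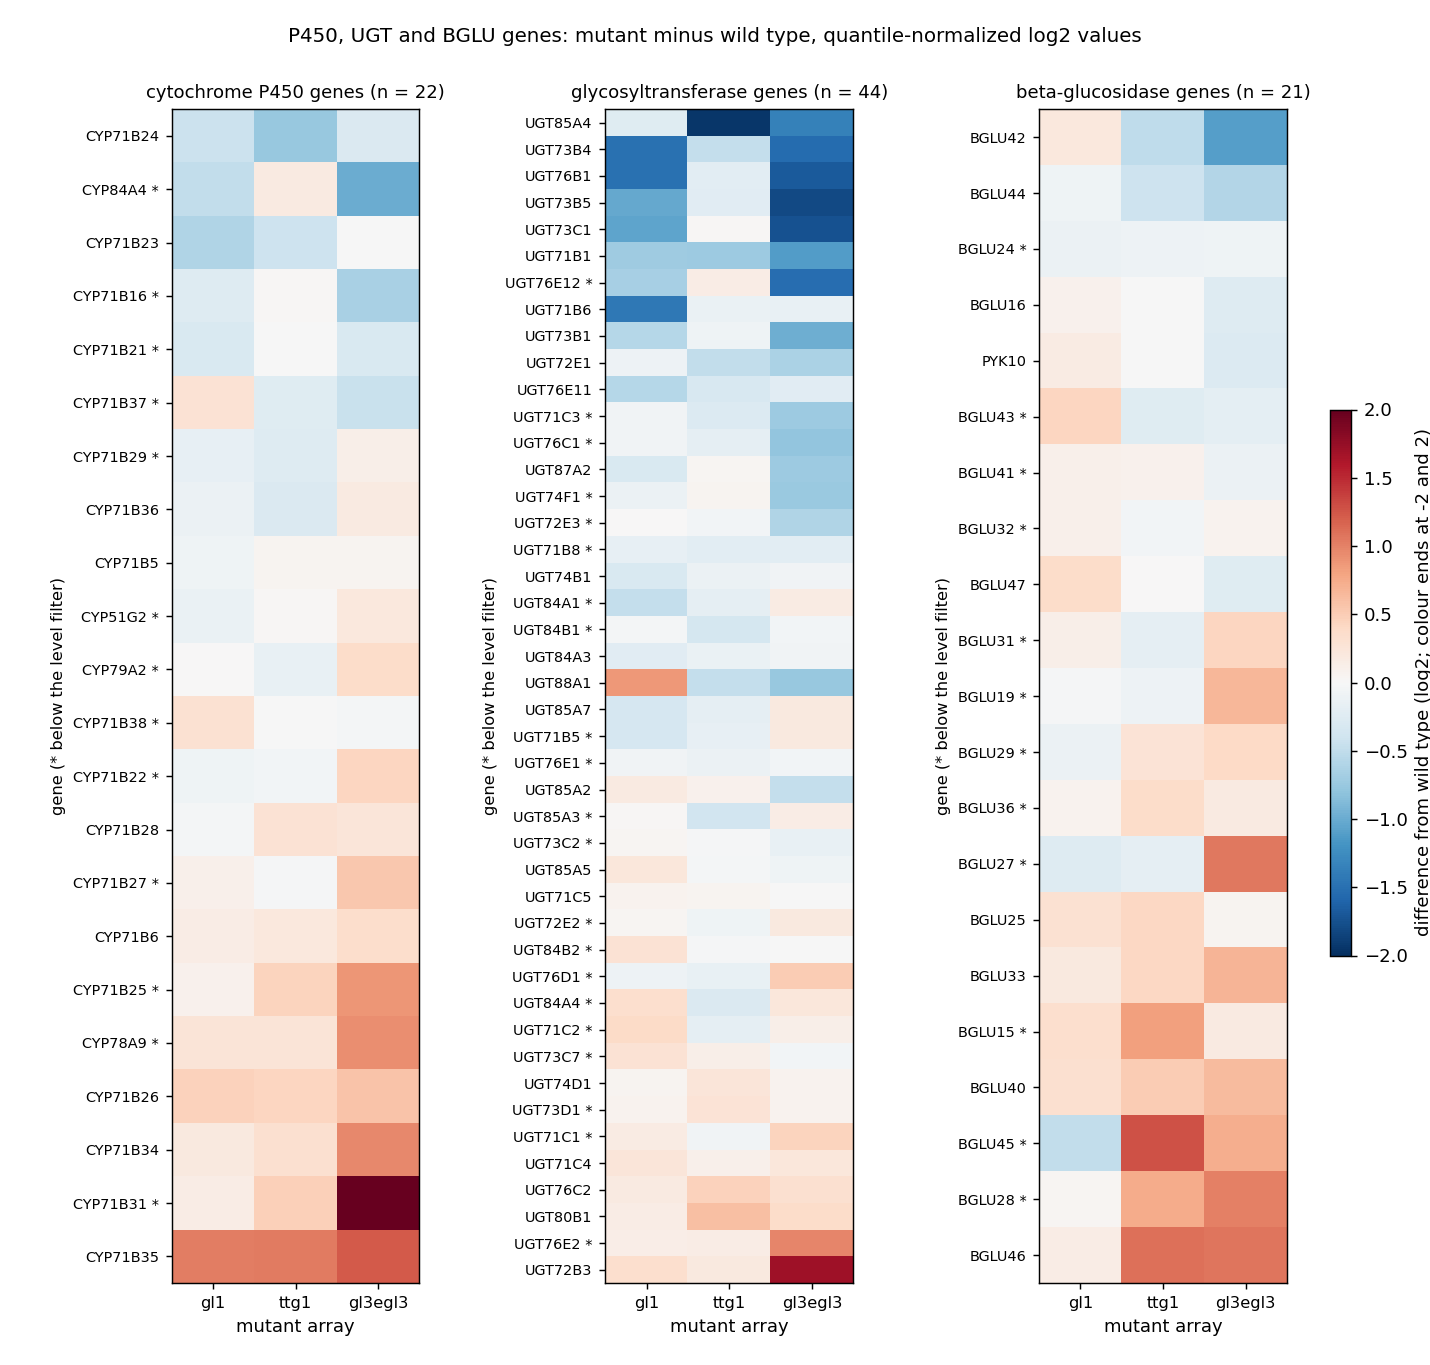
Difference from wild type (log2, colour) of all 87 genes in the 3 mutant arrays, by family and ordered by the mean difference; an asterisk marks genes below the level filter. Blue is concentrated in the upper UGT rows under gl1 and gl3egl3, and CYP71B35 is the one row at least 2-fold higher in every mutant.

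CYP71B35 was the only one of the 87 genes at least 2-fold from wild type in the same direction in all 3 mutants. It was at 6.18 in wild type, with 7.21 in gl1, 7.22 in ttg1 and 7.42 in gl3egl3. The mutant arrays lay close together and wild type lay apart below them. The mean difference was 1.1 ± 0.12 (SD, n = 3 mutants), and this SD does not hold the error of the wild-type values. The wild-type array thus stood 2-fold below every other. Of all probe sets, 0.211% were 2-fold higher in all 3 mutants (0.373% of those past the filter), and 0.308% were 2-fold lower (0.516%), among them no member. limma, taking the 3 mutants as one class, gave CYP71B35 a standard error of 0.228, an unadjusted p of 0.0061 and an adjusted p of 0.86 over 12601 probe sets. CYP71B35 reached the filter level of 6.26 in the 3 mutants only, so it entered this fit through the group where it was high. In the deposited values its differences were 1.52, 1.45 and 1.60, or 1.21, 1.15 and 0.96 after the median shift of each array was taken off. SAG29, the one named senescence gene of 4, was also higher in every mutant (4.92 in wild type, against 5.93, 6.92 and 6.07), and the part of plant stage in the CYP71B35 values was not tested.

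CYP71B35 sits in a tandem array of its own subfamily. In the TAIR10.1 gene order, CYP71B34, CYP71B35, CYP71B36 and CYP71B37 are direct neighbours, and CYP71B25 and CYP71B26 precede them with 1 gene between each. CYP71B26 was at 8.60 in wild type, then 9.06, 9.03 and 9.18 in gl1, ttg1 and gl3egl3, so wild type was again lowest, by a smaller distance (mean difference 0.49 ± 0.08, SD, n = 3; limma unadjusted p = 0.081). CYP71B25, below the filter, was at 4.06 in wild type, with 4.14 in gl1, 4.51 in ttg1 and 4.93 in gl3egl3. CYP71B34 was at 7.38 in wild type, with 7.57 in gl1, 7.70 in ttg1 and 8.34 in gl3egl3. The direct neighbour CYP71B36 did not follow, at 7.22 in wild type, against 7.10, 6.94 and 7.40 in the mutants, and CYP71B37, below the filter, ran from 4.20 to 4.95 with wild type in the middle. CYP71B24, in the next run of the array, was highest in wild type (6.31) and at 5.88, 5.55 and 6.02 in the mutants. Neighbouring CYP71B genes thus differed from wild type in unequal directions, and close paralogs can cross-hybridise, so each value is uncertain to that extent.

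**Figure D3:**
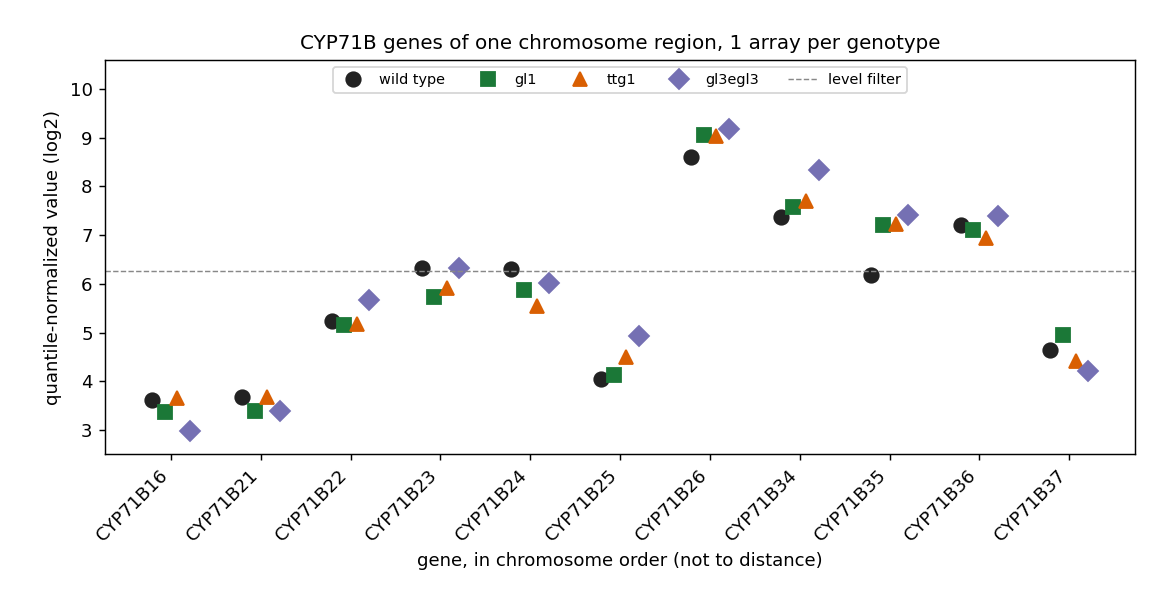
Quantile-normalized value (log2, vertical axis) of 11 CYP71B genes in chromosome order in the 4 arrays; the dashed line is the level filter. Wild type is the lowest array for CYP71B25, CYP71B26, CYP71B34 and CYP71B35. It is the highest for CYP71B24 and, narrowly, for CYP71B21 and CYP71B23. Levels of different genes are not comparable.

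Of the other CYP genes, CYP71B31 and CYP84A4 spanned more than 2-fold over the arrays, both below the level filter. CYP71B6, which turns indole acetonitrile into indole carboxylic compounds, was at 9.41 in wild type, against 9.56, 9.62 and 9.77 in the mutants. CYP71B5 stayed within 0.15 across the arrays, and CYP71B28 within 0.34. CYP71B31, which oxidises linalool in flowers, was at 3.34, 3.48 and 3.82 in wild type, gl1 and ttg1 and at 5.95 in gl3egl3. Its difference there was 2.61, or 3.23 as deposited and 2.11 after cyclic loess, and since all 4 arrays lay below the level filter the size is uncertain. CYP84A4, an enzyme of arabidopyrone synthesis, was lowest in gl3egl3 (3.82 against 4.80 in wild type). CYP78A9, known for its effect on fruit and seed size, was highest there (5.91 against 4.98). Both were below the filter. In the deposited values CYP84A4 was instead lowest in gl1, and its gl3egl3 difference was 0.25, or -0.39 after the median shift of the array was taken off. CYP79A2, of benzyl glucosinolate synthesis, and CYP51G2, a relative of the sterol demethylase gene, ran at 3.16 to 3.68 and 3.31 to 3.65 and were also below it.

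Several UGT genes were lower in gl1 and gl3egl3 and close to wild type in ttg1. UGT76B1, whose enzyme glucosylates isoleucic acid, salicylic acid and N-hydroxypipecolic acid and so dampens immune signalling, was at 8.25 in wild type and 8.04 in ttg1, and at 6.76 in gl1 and 6.58 in gl3egl3. UGT73B4 was at 9.27 and 8.80 in wild type and ttg1, and at 7.77 and 7.73 in gl1 and gl3egl3. UGT73C1, active on cytokinins and on the explosive TNT in enzyme studies, was at 6.65 and 6.67 against 5.60 and 4.91. In these 3 genes both of the lower arrays were at least 2-fold below both of the others.

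UGT73B5, which with its relatives is induced by pathogens and contributes to resistance against Pseudomonas syringae, had the same order of arrays at 8.39 in wild type, 8.17 in ttg1, 7.37 in gl1 and 6.59 in gl3egl3. UGT73B5 and UGT73B4 are direct neighbours on the chromosome. UGT76E12, below the filter, was at 5.73 and 5.88 in wild type and ttg1 and at 5.07 and 4.21 in gl1 and gl3egl3. UGT73B1 was at 8.70 and 8.61 against 8.13 and 7.72, within 2-fold of wild type in every array. The other UGT73 genes measured, UGT73C2, UGT73C7 and UGT73D1, ran at 3.40 to 4.32 without such an order. They lay so far below the filter that a 2-fold drop could hardly show.

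In all, 11 of 22746 probe sets (0.0484%, or 0.0873% of those past the filter) had gl1 and gl3egl3 both 2-fold below both wild type and ttg1, and 3 of these 11 are UGT76B1, UGT73C1 and UGT73B4. This count was made after the values were seen and carries no test. With no size required, 12 of 87 genes had that order against 15.7% of all probe sets, so the order alone is as frequent elsewhere. The others of the 11 that name 1 gene are CML38, WRKY6 and AT5G39580. CML38, a wound-inducible calmodulin-like gene, was at 10.08 in wild type, 9.69 in ttg1, 8.60 in gl1 and 8.52 in gl3egl3. WRKY6, a transcription factor gene of senescence and defence, was at 7.37, 7.49, 6.33 and 6.30 in that order. STZ, the other named gene of 11 touch and wounding markers, was lower in all 3 mutants, at 9.74 in wild type, with 7.24 in gl1, 8.27 in ttg1 and 8.22 in gl3egl3. The part of handling or wounding in the UGT values was not tested. In the deposited values 1 of the 3 UGT genes (UGT76B1) kept a 2-fold gap, and after cyclic loess 2 did (UGT76B1 and UGT73C1).

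**Figure D4:**
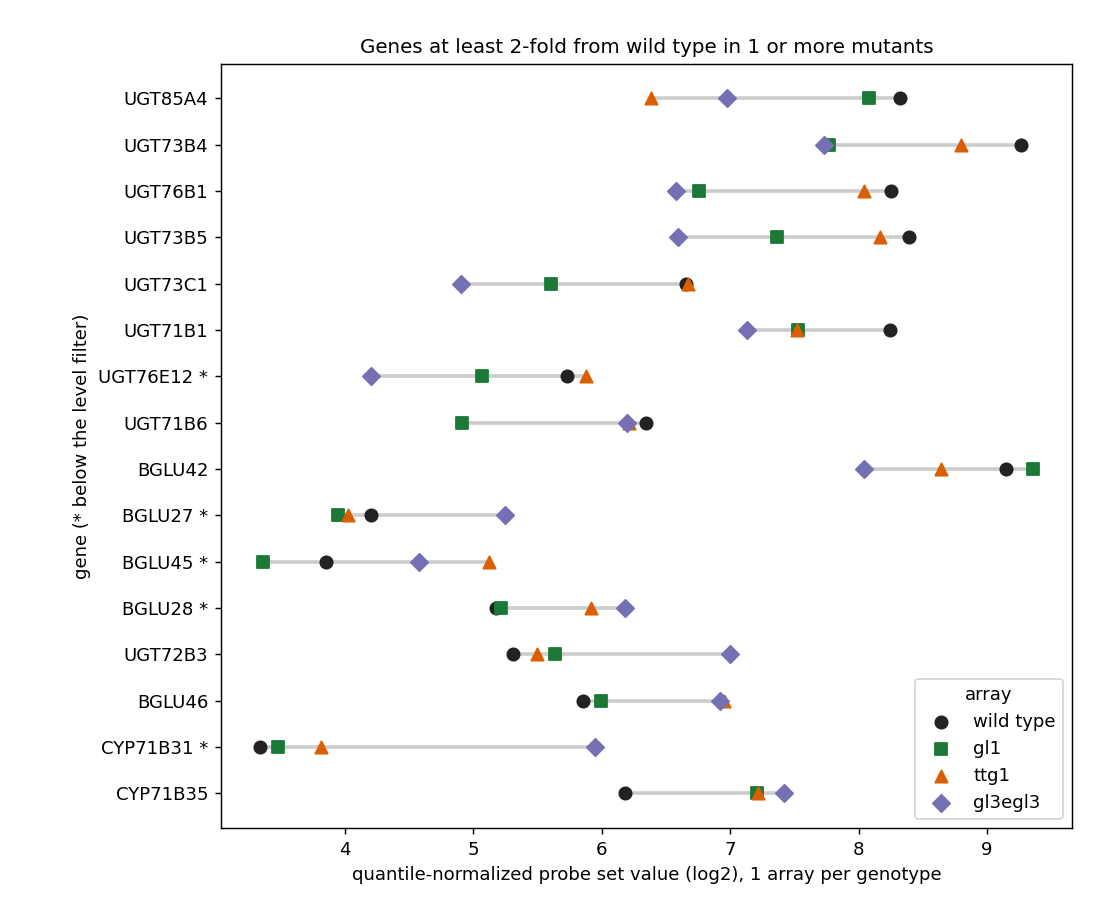
Quantile-normalized value (log2, horizontal axis) in each array of the 16 genes at least 2-fold from wild type in 1 or more mutants; grey lines span the 4 arrays and an asterisk marks genes below the level filter. For UGT73B4, UGT76B1, UGT73B5, UGT73C1 and UGT76E12 the wild-type and ttg1 points lie to the right of gl1 and gl3egl3.

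Abscisic acid is inactivated by glucosylation and released again by beta-glucosidases. UGT71B6, whose enzyme glucosylates abscisic acid, was at 6.34 in wild type, 6.21 in ttg1 and 6.19 in gl3egl3, and at 4.91 in gl1. The gl1 array alone stood apart, by 1.28 from the nearest. Of all probe sets, 0.0484% (0.0794% of those past the filter) were 2-fold lower in gl1 than in every other array. UGT71B6 itself passed the filter through the wild-type array only, where it was highest. Its relative UGT71B8 was at 4.21 in wild type and near 4.0 in the mutants, so far below the filter that such a drop could hardly show. UGT71C5, which also glucosylates abscisic acid, was level at 7.17 to 7.24. BGLU33, a vacuolar enzyme that frees abscisic acid from its glucose ester, was at 7.93 in wild type, with 8.13 in gl1, 8.34 in ttg1 and 8.60 in gl3egl3. It was not called by limma with the mutants as a class (difference 0.43, adjusted p = 0.86).

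UGT71B1 was lower in all 3 mutants, at 8.24 in wild type, with 7.53 in gl1, 7.52 in ttg1 and 7.13 in gl3egl3. Its mean difference was -0.85 ± 0.23 (SD, n = 3 mutants), with an unadjusted p of 0.030 and an adjusted p of 0.86 in limma. It and CYP71B35 were the 2 members with an unadjusted p under 0.05 in that fit, and limma called 0 of 41 members and 0 of 12601 probe sets after adjustment (0% in each direction). Unadjusted p-values under 0.05 were found for 2.38% of probe sets on the lower side and 2.72% on the higher side. UGT76E11 had a mean difference of -0.37 and UGT87A2, a gene that affects flowering time, one of -0.33.

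Apart from UGT76B1 and UGT73C1 above, whose enzymes act on salicylic acid and on cytokinins, no named gene of the auxin, salicylate and cytokinin lists was 2-fold from wild type in any mutant. UGT74D1, which acts on auxin and its oxidised form, was at 8.22 in wild type and between 8.29 and 8.47 in the mutants. UGT76C2, a cytokinin N-glucosyltransferase gene, was at 7.22 in wild type, against 7.40, 7.68 and 7.53 in the mutants, and its neighbour UGT76C1 was lowest in gl3egl3 at 5.10 against 5.89 in wild type. UGT74F1, a salicylic acid glucosyltransferase gene, was at 4.96, 4.83 and 5.01 in wild type, gl1 and ttg1 and at 4.21 in gl3egl3. UGT71C3, which acts on methyl salicylate, was at 6.02 in wild type and 5.29 in gl3egl3, and UGT84B1, an auxin glucosyltransferase gene, at 4.29 to 4.64. The lower gl3egl3 values of UGT76C1, UGT74F1 and UGT71C3 depended on the normalization. As deposited, their differences from wild type there were -0.003, 0.42 and -0.02. With the median shift of the array taken off they were -0.64, -0.22 and -0.65. UGT84B2, UGT76D1 and UGT76E1 stayed between 3.37 and 4.36, which with UGT76B1 completes the 8 named of 12 genes on the auxin and salicylate list.

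Among genes of lignin precursors, BGLU46 and BGLU45 were higher in ttg1 and gl3egl3 than in wild type and gl1. BGLU46, encoding a glucosidase of monolignol glucosides, was at 5.85 in wild type and 6.0 in gl1, and at 6.95 in ttg1 and 6.92 in gl3egl3. Its near neighbour BGLU45, an enzyme of the same kind, was at 3.85 and 3.37 against 5.12 and 4.58, all below the level filter. The third gene of the subgroup, BGLU47, was at 7.28 and 7.65 against 7.29 and 7.03 and did not share the order. UGT72E1, which glucosylates lignin precursor aldehydes, went the other way at 7.82 and 7.71 against 7.32 and 7.18. UGT72E2 and UGT72E3, monolignol glucosyltransferase genes, were below the filter at 5.93 to 6.22 and 3.47 to 4.08. The hydroxycinnamate glucosyltransferase genes UGT84A1, UGT84A3 and UGT84A4, direct neighbours on the chromosome, stayed within 0.64 each.

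Set as a pair against wild type and gl1, ttg1 and gl3egl3 had higher BGLU46 values by 1.01 ± 0.22 (SE, limma, unadjusted p = 0.0034, adjusted p = 0.17). BGLU46 reached the level filter in ttg1 and gl3egl3 only. It thus entered the fit through the pair where it was high, and its p-values are no support. UGT85A4 was lower by 1.52 ± 0.28 (difference -1.52, unadjusted p = 0.0017, adjusted p = 0.12), at 8.32 in wild type, with 8.08 in gl1, 6.38 in ttg1 and 6.98 in gl3egl3. UGT88A1 was at 10.42 in wild type and 11.29 in gl1, and at 9.94 in ttg1 and 9.66 in gl3egl3 (difference -1.06, adjusted p = 0.41 in limma). BGLU42, which takes part in root responses to iron shortage and to beneficial bacteria, was at 9.15 and 9.36 against 8.64 and 8.04 (difference -0.91, adjusted p = 0.38 in limma). These genes were named by this same fit, so it is no separate result that the arrays of one pair did not overlap those of the other. The share of all probe sets with that separation was not counted. No member passed the adjusted threshold, where 0.381% of probe sets were called lower and 0.0397% higher. At an unadjusted p under 0.05, 3 of 41 members were lower and 1 higher, against 5.79% and 3.52% of probe sets. The labels name an L.er reference for ttg1 and gl3egl3 only, and no accession for wild type and gl1. If accession differed between these pairs, it could not be told apart from genotype. AOP3, a glucosinolate side-chain gene, was at 4.27 in wild type and 4.69 in gl1, against 8.15 in ttg1 and 7.75 in gl3egl3 (adjusted p = 0.025 in limma). It too reached the level filter in ttg1 and gl3egl3 only. AOP3 is known to be expressed in some accessions and silent in others, and the part of accession in the values above was not tested.

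Among the remaining genes of that fit, differences were small. BGLU44 was at 10.45 in wild type and 9.86 in gl3egl3 (pair difference -0.46), BGLU40 at 6.49 and 7.12 (0.40), CYP71B34 had a pair difference of 0.55 and UGT80B1, a sterol glucosyltransferase gene, one of 0.42. UGT72B3, a close relative of a monolignol glucosyltransferase gene, was at 5.31 in wild type, with 5.64 in gl1, 5.50 in ttg1 and 7.0 in gl3egl3, and it passed the filter through that last array only. Besides UGT72B3, CYP71B31 and BGLU27 were 2-fold higher in gl3egl3 than in every other array, as were 3.31% of all probe sets (2.84% of those past the filter), and both of these lay below the filter.

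PYK10 is the main beta-glucosidase of ER bodies, compartments that store it for defence, and is most abundant in roots and in young seedlings. It was at 11.18 in wild type, with 11.34 in gl1, 11.18 in ttg1 and 10.91 in gl3egl3, a spread of 0.43, and limma gave the mutants as a class a difference of -0.04 ± 0.27 (SE, adjusted p = 0.97). The genes known to act with it were less even. NAI2, an ER body component, was at 8.72 in wild type and 8.40 in gl1, and at 7.34 in ttg1 and 6.82 in gl3egl3 (adjusted p = 0.12 in limma for the pair). NAI1, the bHLH factor that switches on ER body genes, was at 5.61, 5.49, 4.70 and 5.12 in the same order and below the filter. In the deposited values it was above wild type by 0.35 in gl1 and 0.34 in gl3egl3. The median shifts of those arrays from wild type were 0.32 and 0.63. JAL33, a lectin of the PYK10 complex, was lowest in ttg1 (5.88 against 6.81 to 6.99). EXPA18, a root hair gene, ran from 5.34 in wild type to 3.89 in gl3egl3, below the filter, so 2 of the 3 named root genes of 10 were below it. As deposited, the gl3egl3 difference of EXPA18 was -0.25.

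The other named beta-glucosidases of glucosinolate and ER body type were mostly below the filter. BGLU28, active in glucosinolate breakdown under sulfur shortage, was at 5.18 in wild type and 5.22 in gl1, and at 5.92 in ttg1 and 6.18 in gl3egl3. BGLU15, next to it on the chromosome and an enzyme of flavonol glycoside breakdown, was highest in ttg1 at 5.07 against 4.25 in wild type. BGLU25 was at 7.73 in wild type and between 7.79 and 8.14 in the mutants. BGLU19, BGLU24 and BGLU36 ran between 3.35 and 4.43. ATA27, the remaining named gene of this list (7 of 17 named) and outside the symbol rule, was at 3.68, 3.28 and 3.72 in wild type, gl1 and ttg1 and at 5.25 in gl3egl3, below the filter. In glucosinolate synthesis, UGT74B1, which adds the glucose of the core structure, was at 9.53 in wild type and between 9.23 and 9.46 in the mutants, and BCAT4, of methionine chain elongation, was at 11.20 to 11.40.

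Of 19 runs of neighbouring members (at most 2 annotated genes between), which hold 50 of the 87 genes, few had more than 1 gene past 2-fold. UGT73B4 with UGT73B5 and BGLU45 with BGLU46 each had both genes 2-fold from wild type in the same mutant and direction. By contrast UGT76E12 was lower in gl3egl3 while UGT76E11, with 2 genes between, was at 8.61 there and 8.83 in wild type. UGT73C1 was 2-fold lower in gl1 and gl3egl3. Its direct neighbour UGT73C2 ran at 3.40 to 3.59, so low that such a drop could hardly show, and no contrast is read. UGT85A2, UGT85A5, UGT85A7 and UGT85A3, which lie together, stayed within 0.65 each, unlike UGT85A4 elsewhere.

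The members not described so far stayed within 2-fold across all 4 arrays. Among those past the filter, BGLU16 spanned 0.36 between its highest and lowest array, CYP71B23 0.60 and UGT71C4 0.25. Below the filter, UGT76E2 spanned 0.97, with its highest value in gl3egl3 (4.67 against 3.70 in wild type). BGLU29, BGLU31, BGLU32, BGLU41, BGLU43, CYP71B16, CYP71B21, CYP71B22, CYP71B27, CYP71B29, CYP71B38, UGT71B5, UGT71C1 and UGT71C2 spanned between 0.15 (BGLU32) and 0.68 (BGLU43).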

How the data were processed

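Labelled cDNA of 4 seedling samples was read on arrays, 1 deposited column per genotype. The deposited values are log2 probe set values made with RMA, per the submitters' processing notes; for version, settings and scaling between columns the sources used here are silent. Deposited medians were 5.93 in wild type and between 6.33 and 6.40 in the mutants, and the SD was lowest in gl3egl3 (2.01 against 2.34 to 2.41). The median shift from wild type was 0.32 in gl1, 0.30 in ttg1 and 0.63 in gl3egl3. All wild-type values were multiples of 0.005, which rounding or a mean of several arrays could give, and the labels do not say. The 22746 probe sets without 64 controls were quantile normalized with limma 3.58.1 in R 4.3.3. Gene names are those of the platform annotation, brought up to date by Entrez number with RefSeq (TAIR10.1), where 13436 of 13513 matched. Neither replicates nor sample origins are stated, so a p-value speaks only of the spread among these arrays. That spread lies between arrays of different genotypes taken as replicates, so it joins genotype differences with technical error and cannot separate them. With the mutants as a class, it is the spread between the mutants. With the arrays set as pairs, it is the spread within each pair. The number of arrays limits the precision.

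limma's lmFit and eBayes ran over the 12601 probe sets past the level filter, with Benjamini-Hochberg adjustment at 0.05, for the 3 mutants against wild type and for ttg1 with gl3egl3 against wild type with gl1. The lone wild type is assumed to vary like the mutants. Single mutants were compared with wild type by a 2-fold rule. Named genes were the 3 given markers (CYP71B35, UGT71B6, PYK10), genes 2-fold apart in all mutants or in 1 array, the 5 smallest p-values per direction and fit, the 10 highest means, the 10 widest ranges and role list members. Members and lists were chosen with earlier results of these data known. Of 25 lists, 6 (brassinosteroids, gibberellins, jasmonates, cutin and suberin, abscisic acid partners, P450 reductases) had no named gene. Of the others, the median mean difference over the 3 mutants was 0.08 for glucosinolate synthesis (3 genes), 0.20 for thioglucosidases (7), -0.08 for abscisic acid (4), -0.35 for cytokinins (3), -0.12 for auxin and salicylate (8), 0.05 for phenylpropanoids (11), 0.04 for sterols (3), 1.08 for monoterpenoids (1), 0.48 for CYP78A (1), 0.09 for CYP71B (18), 0.12 for glucosinolate partners (3), -0.50 for ER body partners (3), 0.05 for green tissue (1), -0.04 for root (3), 0.17 for trichome (3), 0.06 for guard cell (3), 1.38 for senescence (1), -1.48 for touch and wounding (2) and -0.86 for late anthocyanin genes (2), against 0.01 over all probe sets. Such a mean can join opposite directions. The late anthocyanin median was 0.78 in gl1, -1.94 in ttg1 and -1.43 in gl3egl3.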

Additional observations from a re-analysis of the deposited data

Results flagged for a closer look

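In 3 genes 1 mutant lay above wild type and another below it, each by at least 0.25 (log2), with at least 2-fold between them. The distance was 1.63 for UGT88A1 (gl1 above, gl3egl3 below), 1.76 for BGLU45 (ttg1 above, gl1 below) and 1.30 for BGLU27 (gl3egl3 above, gl1 below). BGLU45 and BGLU27 were below the level filter. With 1 deposited column per genotype, these differences between mutants were not tested. The share of all probe sets with mutants so placed is not given here.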

How the results depend on the processing

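In the deposited values 3 genes were 2-fold lower in gl1 (UGT71B6, UGT73B4 and UGT76B1) in place of 5, 4 lower in gl3egl3 in place of 7 (without BGLU42, UGT71B1 and UGT73C1) and 5 higher there in place of 3. Those values still hold the median shift of each array, 0.63 in gl3egl3. With it taken off, BGLU42, UGT71B1 and UGT73C1 were at -1.60, -1.53 and -1.56 in gl3egl3. The added higher genes BGLU28 and CYP71B34 were then at 0.94 and 0.60, and BGLU46 and CYP71B35 at 0.85 and 0.96. The count with gl1 and gl3egl3 both 2-fold below wild type and ttg1, added after seeing the data, was 3 as reported, 2 after cyclic loess and 1 in the deposited values. Without the level filter, which then tests more genes, 6 were higher in gl3egl3 in place of 3, and 3 stood apart in that array in place of 1. Leaving out 1 mutant asks for fewer arrays, so its counts cannot fall. Genes lower in all mutants left ranged from 0 to 4 (0 as reported, 1 without gl1, which is UGT85A4, and 4 without ttg1, which are UGT73B4, UGT73B5, UGT73C1 and UGT76B1), and higher ones from 1 to 2 (2 without gl1, where BGLU46 joins CYP71B35). The shares of all probe sets under these reduced rules are not given here, so the counts are not set against a background. The pair fit called 0 to 1 members without 1 array, the 1 being UGT72B3 without ttg1 (difference 1.53, adjusted p = 0.033 in limma), where 707 of 12601 probe sets (5.61%) were called and gl3egl3, the array through which the gene passed the filter, stood alone. The class fit called 0 members under each alternative, while those at an unadjusted p under 0.05 were 2 as reported, 7 in the deposited values, 5 without ttg1 and 4 without gl1; in the pair fit they were 4 as reported, 6 in the deposited values, 8 with no level filter, 8 without ttg1 and 2 without gl3egl3. Averaging probe sets or leaving out those with _s_at or _x_at changed no count, since each member has 1 probe set and none of that kind. Of 493 values of the 29 genes named by rule under the alternatives, 467 moved by less than the SD over the 3 mutants, 26 by more, and 0 changed sign from a 2-fold value. The 467 include values that could not move. These are the 58 under each of no level filter, averaged probe sets and left-out _s_at or _x_at probe sets. The 467 thus overstate how stable the values were. No paired analysis was possible because each group has 1 deposited column. Low values near array background limit what the 46 genes below the filter can show.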
